A study of Mus musculus with 12 samples.

Results

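Transcripts of the choroid plexus epithelium were followed library by library in messenger RNA of the entire cortex and the entire cerebellum, since the amount of plexus left on a dissected brain region can differ with the dissection. Rows of the deposited table with the symbols Ttr, Kl, Folr1, Aqp1, Clic6, Kcnj13, Otx2 and Slc4a5 were taken, which gave 8 of the 15758 gene symbols. The 12 libraries came from SCA1 KI mice (Atxn1 154Q/2Q, 1 allele of Atxn1 carrying an expanded glutamine-coding repeat at its own locus) and WT mice (Atxn1 2Q/2Q), all C57BL/6J at 12 weeks of age, and every combination of the 2 regions with a genotype had 3 libraries, which makes 4 groups. The labels list males, while the methods of the study combine males and females. Both regions were macrodissected whole, so each library is a mixture of cells, and the spread between libraries holds differences in dissection as well as between animals. Fewer plexus cells and less plexus RNA per cell cannot be told apart in such material. The cerebellar libraries belong to an earlier data set of the same laboratory, so region and sequencing run cannot be told apart.

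The choroid plexus is a folded epithelium that hangs into the ventricles of the brain and secretes cerebrospinal fluid. Its cells move salt and water from blood to fluid, hold the barrier between both, and load the fluid with carrier proteins. The plexus of the fourth ventricle lies against the underside of the cerebellum, and that of the lateral ventricles lies under the cortex, so a macrodissected region can come with or without it. Ttr encodes transthyretin, the carrier of thyroxine that plexus cells make in very large amounts. Kl encodes klotho, a membrane protein that acts as co-receptor for a fibroblast growth factor, and Folr1 encodes the folate receptor that carries folate into the fluid. Aqp1 (a water channel), Kcnj13 (an inwardly rectifying potassium channel), Slc4a5 (a sodium bicarbonate cotransporter) and Clic6 (a chloride intracellular channel protein) serve transport. Otx2 is the homeodomain factor of plexus development and maintenance, and it is also known from granule neurons of the cerebellum.

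The members lie on 7 chromosomes of GRCm38, namely Kcnj13 on chromosome 1 (87386363 to 87394729, minus strand), Kl on 5 (150952607 to 150993817, plus strand), Aqp1 on 6 (55336432 to 55348555, plus strand), Slc4a5 on 6 (83219828 to 83304945, plus strand), Folr1 on 7 (101858331 to 101870788, minus strand), Otx2 on 14 (48657677 to 48673819, minus strand), Clic6 on 16 (92485736 to 92541243, plus strand) and Ttr on 18 (20665280 to 20674321, plus strand). All are annotated as protein coding in GENCODE. Exons of Kcnj13 overlap those of Gigyf2 and exons of Otx2 overlap those of Gm49154 and of the antisense gene Otx2os1, and strand use in counting is not given in the sources used here, so the low counts of Kcnj13 and Otx2 are uncertain in origin. RefSeq promoters (GRCm38.p6) were held for 5 members. The 250 bases before the start are shown for Kl and Aqp1, which rose and fell with Ttr between cerebellar libraries, and for the most upstream start of Otx2, which hardly moved with it. All letters are in lower case because none of these 3 stretches held the Otx2-type homeodomain motif TAATCC on either strand.
Kl (chr5:150952357-150952606, plus strand): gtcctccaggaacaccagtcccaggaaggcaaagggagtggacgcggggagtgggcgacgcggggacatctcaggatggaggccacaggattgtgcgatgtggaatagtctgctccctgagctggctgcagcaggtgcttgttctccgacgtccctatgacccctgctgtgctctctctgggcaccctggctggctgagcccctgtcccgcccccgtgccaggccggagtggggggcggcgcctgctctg
Aqp1 (chr6:55336049-55336298, plus strand): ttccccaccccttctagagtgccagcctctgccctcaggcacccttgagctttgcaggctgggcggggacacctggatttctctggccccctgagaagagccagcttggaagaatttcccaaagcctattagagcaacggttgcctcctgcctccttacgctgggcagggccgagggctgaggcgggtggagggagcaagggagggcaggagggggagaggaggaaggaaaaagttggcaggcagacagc
Otx2 (chr14:48667645-48667894, minus strand): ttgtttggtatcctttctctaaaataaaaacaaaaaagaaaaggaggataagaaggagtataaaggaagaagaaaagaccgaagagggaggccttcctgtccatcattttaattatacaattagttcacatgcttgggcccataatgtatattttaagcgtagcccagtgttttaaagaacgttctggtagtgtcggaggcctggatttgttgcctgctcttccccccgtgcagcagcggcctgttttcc
Across all 8 listed start sites of the 5 members, 1 window of 300 bases (250 before and 50 after the start) held the motif, at the third Otx2 start, 211 bases upstream and in a window that overlaps an annotated Otx2 exon. The same motif stood in 7.06% of 32851 promoter windows of this length.

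Each library held between 29520855 and 51311309 reads on genes, of which 2.44% to 4.25% fell on its 10 most abundant genes. Normalized counts are reads scaled by the size factor of their library, and 1 read was worth 0.687 to 1.22 normalized counts. Values at or below 3 reads (2.06 to 3.66 normalized counts, depending on the library) are too low to rank. Atxn1, whose knock-in allele is still transcribed and so checks no label, was not called between genotypes (limma, adjusted p = 0.132 in the cortex and 0.837 in the cerebellum). Markers of cortical and of cerebellar neurons fitted the labelled regions, with summed cortical neuron markers of 23747 to 34995 in the cortex against 2698 to 3187 in the cerebellum, and summed cerebellar neuron markers of 255622 to 343264 in the cerebellum against 8172 to 12677 in the cortex. The latter cortical sum was mostly Calb1 (4401 to 7602). Cortical WT library D stood apart for Gabra6 (42.1 against 0 to 3.04 in the other cortical libraries), Cbln3 (108 against 11.7 to 19.7) and Pcp2 (28.5 against 0 to 1.19). Neurod1, Cbln1, Zic1 and Barhl1 were not highest in library D among cortical libraries, and the cause was not tested.

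Ttr, the plexus transcript with the widest range, differed up to 189.6-fold between libraries of 1 group in the cerebellum, where the genotypes overlapped. In the cerebellum of WT mice Ttr stood at 19396 normalized counts in library 2, 65781 in library 4 and 17295 in library 6. In the cerebellum of SCA1 KI mice it stood at 365 in library 1, 22628 in library 3 and 69182 in library 5. Library 1 thus nearly lacked the transcript, library 4 and library 5, of opposite genotype, held most of it, and the remaining 3 cerebellar libraries stood close together. As a share of all reads on genes, Ttr took 0.00103% in library 1 (exact binomial 95% interval 0.000937% to 0.00113%, counting error only) and 0.197% in library 5 (0.196% to 0.199%). Cortical WT libraries held 1298 in library B, 41.0 in library C and 54.6 in library D, and cortical SCA1 KI libraries 72.9 in A, 32.4 in E and 40.5 in F. Library B lay above all other cortical libraries, and above library 1 of the cerebellum, while the other 5 cortical libraries held 32 to 74 reads each.

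**Figure D1:**
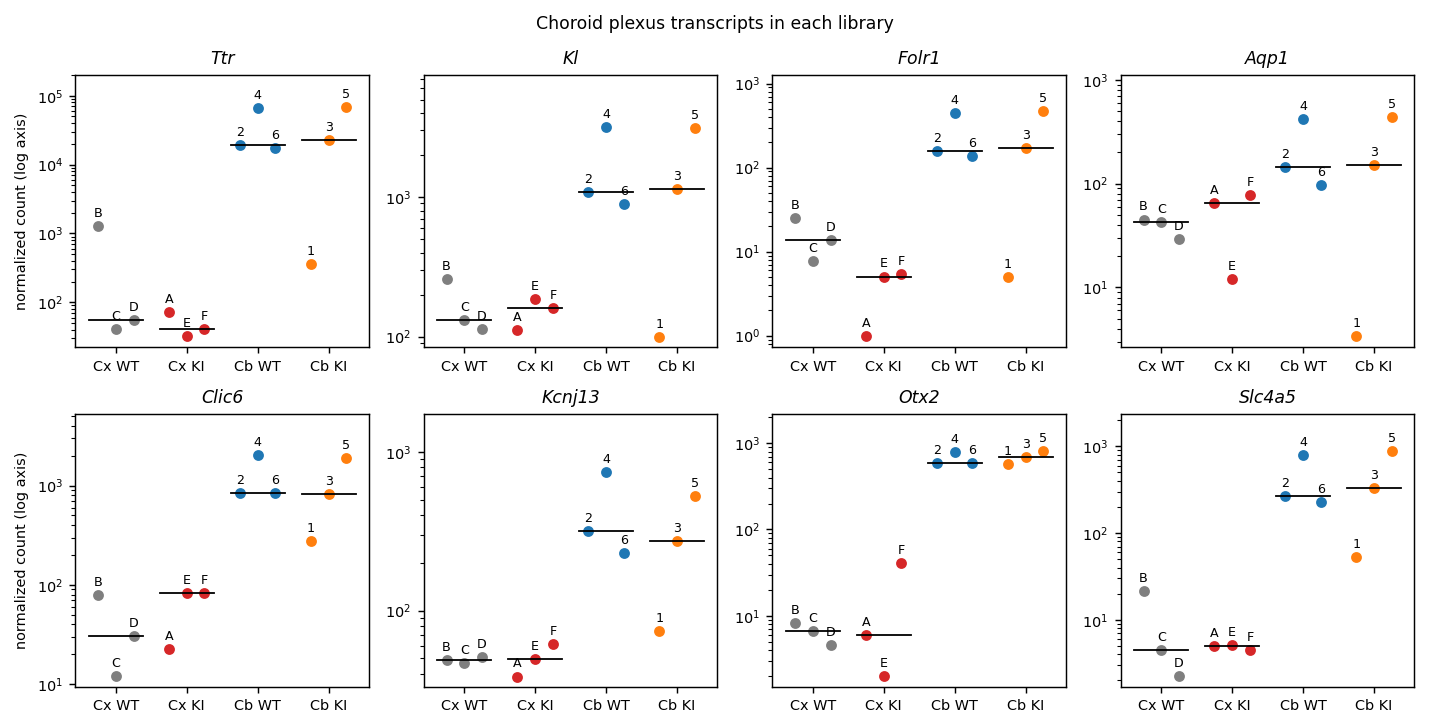
Normalized counts (log axis) of the 8 choroid plexus transcripts in each library, marked by its letter or number, in cortex (Cx) and cerebellum (Cb) of WT and SCA1 KI mice (KI), with a line at the median of each group of 3. Cerebellar library 1 lies lowest of the cerebellar libraries for all 8 transcripts, and libraries 4 and 5 lie highest.

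The co-receptor Kl was likewise lowest in cerebellar library 1 and highest in libraries 4 and 5. It stood at 1095, 3176 and 889 normalized counts in WT libraries 2, 4 and 6, and at 99.4, 1134 and 3103 in SCA1 KI libraries 1, 3 and 5. Library 1 fell below all 6 cortical libraries, whose values were 258, 131 and 114 in WT libraries B, C and D and 112, 185 and 161 in SCA1 KI libraries A, E and F. Library B was again the highest in the cortex, but only 1.39 times above library E. The folate receptor gene Folr1 had lower counts and the same low and high libraries, with 156, 448 and 136 normalized counts in cerebellar WT libraries 2, 4 and 6 and 5.06, 172 and 471 in SCA1 KI libraries 1, 3 and 5. Library 1 held 6 reads of it. In the cortex Folr1 stood at 24.95, 7.75 and 13.7 in WT libraries B, C and D and at 0.986 (1 read), 5.06 and 5.41 in SCA1 KI libraries A, E and F. The cortical genotypes did not overlap for Folr1, on 1 to 21 reads a library, and this was the single member of 8 without overlap in the cortex, against 30.9% of all tested genes.

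Among the transport genes, Slc4a5 and Aqp1 tracked Ttr most closely in the cerebellum. Slc4a5 stood at 268, 787 and 226 normalized counts in cerebellar WT libraries 2, 4 and 6 and at 53.1, 329 and 880 in SCA1 KI libraries 1, 3 and 5. In the cortex it held 21.4 in library B and 2.28 to 5.06 in the other 5, so that B stood out by this bicarbonate transporter too. Aqp1 stood at 145, 417 and 96.7 in WT libraries 2, 4 and 6 and at 3.37 (4 reads), 151 and 441 in SCA1 KI libraries 1, 3 and 5. Cortical Aqp1 did not single out library B, with 45.2, 43.2 and 29.6 in WT libraries B, C and D and 65.0, 12.1 and 78.4 in SCA1 KI libraries A, E and F. All 6 cortical libraries lay above cerebellar library 1 for this water channel.

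Clic6 and Kcnj13 moved the same way in the cerebellum over a narrower range. Clic6 stood at 845, 2044 and 850 normalized counts in cerebellar WT libraries 2, 4 and 6 and at 278, 830 and 1879 in SCA1 KI libraries 1, 3 and 5. In the cortex it was near equal in libraries B (79.6), E (83.0) and F (83.8) and lower in C (12.2), D (30.7) and A (22.7), an order unlike that of Ttr. Kcnj13 stood at 319, 749 and 231 in cerebellar WT libraries 2, 4 and 6 and at 74.1, 275 and 530 in SCA1 KI libraries 1, 3 and 5. Cortical Kcnj13 was even, from 38.4 to 61.3, and library B (48.7) was not set apart. The transcription factor gene Otx2 was the exception in the cerebellum, at 593, 792 and 584 in WT libraries 2, 4 and 6 and 571, 685 and 812 in SCA1 KI libraries 1, 3 and 5. Library 1, which nearly lacked Ttr, kept 678 reads of Otx2. In the cortex Otx2 stood at 2.02 to 8.32 normalized counts in 5 libraries and at 40.5 in SCA1 KI library F.

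Set against library 1, the other 5 cerebellar libraries were 47.4-fold to 189.6-fold higher for Ttr. The corresponding ranges were 27.0 to 93.3 for Folr1 and 28.7 to 131 for Aqp1, both against 4 to 6 reads, and 8.94 to 31.9 for Kl. They were 4.26 to 16.6 for Slc4a5, 3.11 to 10.1 for Kcnj13, 2.99 to 7.35 for Clic6 and 1.02 to 1.42 for Otx2. Members thus differed in how much of their cerebellar count remained in the library with least Ttr, from nearly none of Aqp1 and Folr1 to most of Otx2. The part above library 1 was close to proportional for several members. For every 1000 normalized counts of Ttr above library 1, Kl rose by 43.6 to 52.3 normalized counts across the 5 libraries, Folr1 by 6.78 to 7.94, Slc4a5 by 10.2 to 12.4 and Aqp1 by 5.51 to 7.45. The ratio varied more for Clic6 (23.3 to 33.8) and Kcnj13 (6.62 to 12.8) and by 7.03-fold for Otx2 (0.728 to 5.12). In cortical library B, measured above the median of the other 5 cortical libraries, the same quantity was 13.4 for Slc4a5, 15.6 for Folr1, 101.2 for Kl and 38.9 for Clic6, against 1.57 for Aqp1, 1.91 for Otx2 and -0.69 for Kcnj13. These are descriptions of single libraries, with no test.

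The question of whether the members rose and fell together was put to the 6 libraries of each region, as relations with Ttr on the scale of log2(normalized count + 1), 14 relations in all. In the cerebellum 6 of 7 members were related to Ttr (exact permutation test of Pearson's r, 2-sided, n = 6, adjusted over the 14 relations). Pearson's r was 0.9997 for Folr1, 0.998 for Aqp1 and 0.964 for Slc4a5 (each exact p = 0.00139, adjusted p = 0.00648, Spearman's rho of 1 with exact p = 0.00278, adjusted p = 0.00972). It was 0.991 for Kl (exact p = 0.00278, adjusted p = 0.00972, rho = 0.943, exact p = 0.0167, adjusted p = 0.0467). It was 0.956 for Kcnj13 (exact p = 0.00833, adjusted p = 0.0233, rho = 0.886, exact p = 0.0333, adjusted p = 0.0778) and 0.955 for Clic6 (exact p = 0.0167, adjusted p = 0.0389, rho = 0.714, exact p = 0.136, adjusted p = 0.272). For Otx2 r was 0.717 (exact p = 0.0403, adjusted p = 0.0806) while rho was 1 (exact p = 0.00278, adjusted p = 0.00972), that is, the order of libraries was the same and the range small. On linear normalized counts (r = 0.958, adjusted p = 0.00486, exact permutation) and on deviations from the genotype means (r = 0.841, adjusted p = 0.034, exact permutation) Otx2 passed too, which made 7 of 7. Without libraries 1 and 5, the 2 farthest from the median Ttr level, r over the remaining 4 libraries was 0.933 to 0.999 for the 7 members.

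**Figure D2:**
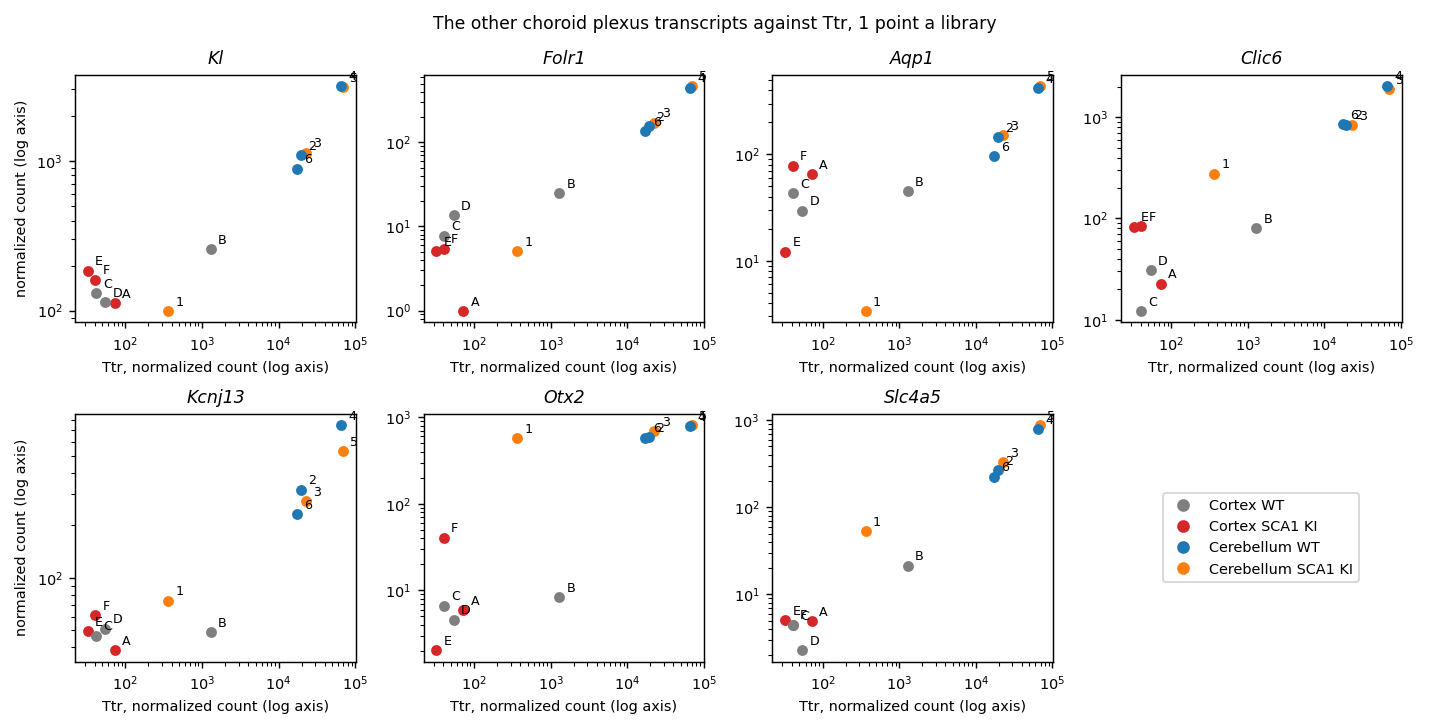
Each of the other 7 members against Ttr, both as normalized counts on log axes, 1 point a library, coloured by region and genotype. In the cerebellum 6 members climb with Ttr from library 1 to libraries 4 and 5 while Otx2 runs nearly flat from 571 to 812; in the cortex library B is alone at 1298 Ttr.

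In the cortex no relation of the 7 members with Ttr passed the test (lowest adjusted p = 0.204, for Slc4a5, r = 0.898, exact permutation p = 0.117, n = 6, rho = 0.20 with exact p = 0.714). Kl had r = 0.669 (exact p = 0.167), Folr1 0.580 (exact p = 0.293), Clic6 0.301 (exact p = 0.715), Aqp1 0.207 (exact p = 0.613), Otx2 0.06 (exact p = 0.815) and Kcnj13 -0.13 (exact p = 0.592). The positive values of Slc4a5 and Kl rested on library B, at 1298 Ttr against 32.4 to 72.9 in the other cortical libraries. With 1 such library r depended mainly on its pairing, so the permutation test of r could hardly reach a low p. On linear normalized counts Slc4a5 had r = 0.989 and still p = 0.117 (exact permutation). Without libraries B and A r on the log2 scale turned to -0.94 for Slc4a5 and -0.92 for Kl over the remaining 4 libraries, where Ttr ranged only from 32.4 to 54.6.

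Between genotypes no member was called in the cortex, where DEGs were genes with an LFC beyond 0.25 in either direction at an adjusted p below 0.05 (0 of 8, against 15.6% of the 15369 tested genes; limma on log2(normalized count + 1)). The LFC of Ttr was -1.63 (SE 1.62, 95% interval -5.14 to 1.89, adjusted p = 0.543), with mean normalized counts of 48.6 ± 21.4 in SCA1 KI and 464 ± 722 in WT (SD, n = 3). An exact permutation test of these means gave p = 0.5, where 3 against 3 libraries cannot go below 0.1. Without library B the LFC of Ttr was -0.05, and with all libraries edgeR gave -3.22 and DESeq2 -3.26. The other 7 LFCs ran from -1.81 for Folr1 (SE 1.19, adjusted p = 0.338) to 0.77 for Clic6 (SE 0.75, adjusted p = 0.533). The median of the 8 was -0.03, and that of all tested genes 0.00 (-0.00281).

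In the cerebellum likewise 0 of 8 were called between genotypes, against 5.36% of tested genes, and no member separated the genotypes without overlap, against 31.8%. Mean Ttr was 30725 ± 35116 normalized counts in SCA1 KI and 34157 ± 27407 in WT (SD, n = 3; exact permutation p = 1). The LFC was -1.76 (SE 1.62, 95% interval -5.27 to 1.76, adjusted p = 0.661), against -0.16 by edgeR and -0.15 by DESeq2. LFCs were below 0 for 7 of the 8 members, with a median of -0.91 over the members, and this rested on library 1. Without library 1 the LFC was above 0 for all 8 members, from 0.01 for Kcnj13 to 0.57 for Slc4a5, with 0.50 for Ttr. The intervals were wide for the members that follow Ttr, for example -3.04 to 0.95 for Kl and -2.45 to 1.38 for Slc4a5, so a genotype difference of several fold in either direction was not detectable with these libraries. At an unadjusted p under 0.05 (limma) the count was also 0 in both regions. Of all tested genes 4689 in the cortex and 2664 in the cerebellum stood under that limit. The tools edgeR and DESeq2 called 0 members as well. The difference between the regions in the genotype effect was called for 0 of 8, against 8.15%.

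**Figure D3:**
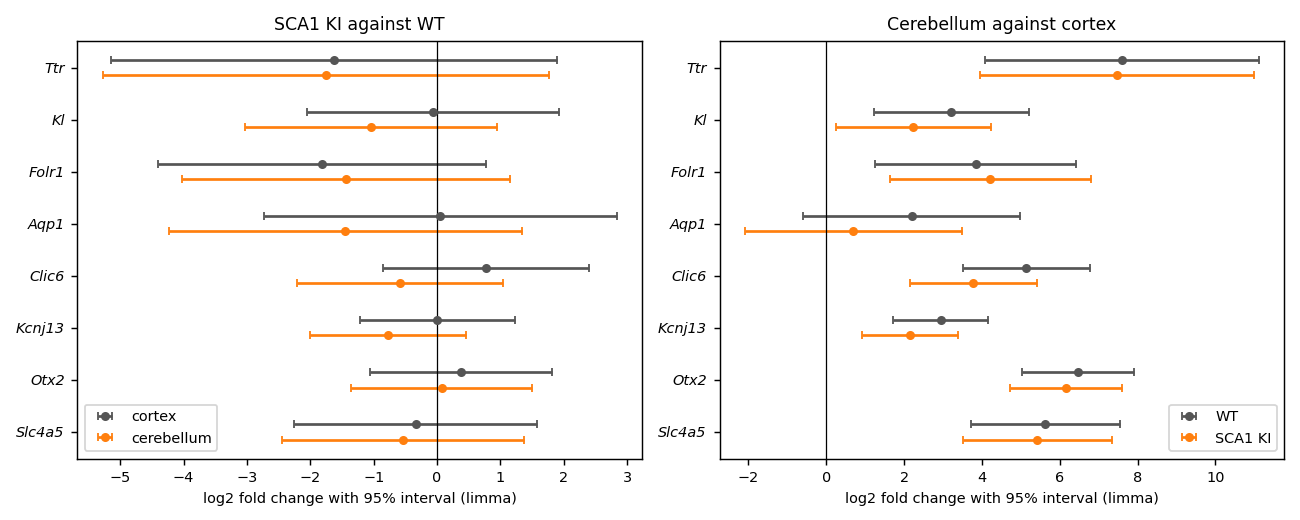
Log2 fold changes (limma) of the 8 members with 95% intervals, SCA1 KI against WT in each region on the left and cerebellum against cortex in each genotype on the right. All intervals on the left span 0, and on the right those of Aqp1 alone span 0 in WT and in SCA1 KI.

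Between regions the members were higher in the cerebellum, with the reservation on sequencing run given above. In WT 7 of 8 were called higher in the cerebellum (against 30.7% of tested genes), and for all 8 every cerebellar library lay above every cortical one (against 34.8%). Otx2 had the lowest adjusted p of the members, at an LFC of 6.47 (SE 0.66, adjusted p = 1.83e-06), and Ttr the largest LFC, at 7.60 (SE 1.62, adjusted p = 0.00108). Slc4a5 followed at 5.63 (SE 0.88), Clic6 at 5.14 (SE 0.75), Folr1 at 3.84 (SE 1.19), Kl at 3.21 (SE 0.92) and Kcnj13 at 2.94 (SE 0.57). Aqp1 had an LFC of 2.19 (SE 1.28, adjusted p = 0.148). In SCA1 KI 7 of 8 were called higher in the cerebellum (against 30.5%), again without Aqp1 (LFC 0.70, SE 1.28, adjusted p = 0.647), and Kl was near the limit (LFC 2.23, SE 0.92, adjusted p = 0.0464). Only 5 of 8 separated the regions without overlap in SCA1 KI (against 36.5%), since library 1 reached or fell below cortical levels of Kl, Folr1 and Aqp1. Without library 1 all 8 were called higher in the cerebellum in both genotypes.

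Per kilobase of annotated exon, Ttr was by far the most abundant member in cerebellar WT libraries, at 28800 ± 23109 normalized counts per kilobase (SD, n = 3). Kcnj13 (341 ± 218), Clic6 (318 ± 176), Kl (184 ± 136), Otx2 (155 ± 27.9), Folr1 (107 ± 76.1), Aqp1 (83.5 ± 65.6) and Slc4a5 (73.5 ± 53.8) followed by their means. Most of these members rose and fell together between libraries, so these SDs do not tell whether neighbours in this order differ. Their order within libraries was not tested. In cortical WT libraries Ttr (392 ± 608) was followed by Kcnj13 (38.4 ± 1.86), Kl (18.0 ± 8.44) and Aqp1 (15.0 ± 3.22), with Slc4a5 (1.61 ± 1.80) and Otx2 (1.54 ± 0.45) lowest. The order of the group means of Ttr itself was cortex SCA1 KI, cortex WT, cerebellum SCA1 KI and cerebellum WT, and each neighbouring pair overlapped in its libraries. Cortex WT and cerebellum SCA1 KI overlapped because library B of the cortex lay above library 1 of the cerebellum.

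A limma fit of every other tested gene on the Ttr level, added after these values were seen, asked which genes shared the pattern. Over all 12 libraries with the 4 group means held, 5 of 15368 genes rose with Ttr (0.0325%) and 0 fell. One member was among them, Slc4a5, with 0.51 log2 units per log2 unit of Ttr (SE 0.05, adjusted p = 0.0041), while Kl missed the threshold (slope 0.51, adjusted p = 0.0502). The other 4 were Kcne2 (a potassium channel subunit), Tmem72 and Cldn2 (a claudin), all from the wider plexus list, and Ccdc135. Of the 5, Slc4a5, Kcne2, Tmem72 and Cldn2 had values at or below 3 reads in some cortical libraries. In the 6 cerebellar libraries alone 19 genes rose with Ttr (0.124%) and 0 fell. They included 4 of the 7 members, Folr1 (slope 0.83, SE 0.02, adjusted p = 7.52e-05), Aqp1 (0.88, SE 0.03, adjusted p = 0.000267), Kl (0.66, SE 0.04, adjusted p = 0.00185) and Slc4a5 (0.53, SE 0.05, adjusted p = 0.029). Otx2 had a slope of 0.07 (SE 0.02, adjusted p = 1). In the 6 cortical libraries alone 0 genes were called (0%), with 359 at an unadjusted p under 0.05. Without library 1, 0 genes were called over the remaining 11 libraries, with 431 at an unadjusted p under 0.05. The slopes of Slc4a5 (0.55, SE 0.09) and Cldn2 (0.54) were then no smaller than with it, while those of Kl (0.32), Folr1 (0.31) and Aqp1 (0.29) were. Without cortical library B 27 genes rose, 5 members among them. In the cerebellum alone 10 genes rose without library 1 and 0 fell, all 10 of them members or genes of the wider plexus list. The members were Kl (slope 0.91, SE 0.04, adjusted p = 0.021), Clic6 (0.70, SE 0.04, adjusted p = 0.0226), Slc4a5 (0.90, SE 0.06, adjusted p = 0.0226) and Folr1 (0.89, SE 0.07, adjusted p = 0.0388), and Aqp1 was not called (0.98, SE 0.10, adjusted p = 0.0953).

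The wider plexus list holds 30 genes, of which 29 were tested. Of these, 10 rose with Ttr in the cerebellum and 19 were not called. The median slope of the 29 was 0.38, against 0.00 (-0.000607) for all tested genes, and the slopes of Slc5a5 (0.01), Slc13a4 (0.06) and Slc4a2 (0.06) were near 0. By genotype 0 were called in the cortex and 0 in the cerebellum (against 15.6% and 5.36% of tested genes). Cortical Sostdc1 stood at 35.6, 19.9 and 19.4 in WT libraries B, C and D and 110, 127 and 114 in SCA1 KI libraries A, E and F (LFC 2.24, SE 1.17, limma adjusted p = 0.219). Its SE was shared with the cerebellum, where Sostdc1 ran from 7.58 in library 1 to 783 in library 5. In its genotype effect 1 gene of the list differed between the regions (against 8.15%), Slc5a5, the iodide symporter (LFC of the cortex minus that of the cerebellum 1.03, SE 0.22, adjusted p = 0.0135), which did not run with Ttr (129.7 normalized counts in library 1 and 128.4 in library 3 of the cerebellum, 652 to 1164 in the cortex). With the Ttr level as a covariate 3 of the list were called higher in the cortex of SCA1 KI, Sostdc1 (LFC 3.27, SE 0.59, adjusted p = 0.00329), Tmem72 (2.09, SE 0.51, adjusted p = 0.0175) and Cldn2 (1.27, SE 0.39, adjusted p = 0.0481). Sostdc1 then also differed between the regions in its genotype effect (3.34, SE 0.80, adjusted p = 0.0274). Cortical Tmem72 stood at 9.51, 1.11 and 1.14 in WT libraries B, C and D and 4.93, 3.04 and 9.01 in SCA1 KI libraries A, E and F. Cortical Cldn2 stood at 15.4, 1.11 and 4.55 and at 5.91, 5.06 and 10.8 in the same order. Library B was the highest for both, and neither was called without the covariate. Tmem72 in libraries C, D and E and Cldn2 in library C were at or below 3 reads, too low to rank. The most abundant gene of the list was Enpp2, the lysophospholipase D autotaxin, at 22300, 47150 and 17755 in cerebellar WT libraries 2, 4 and 6 and 6007, 19345 and 46906 in SCA1 KI libraries 1, 3 and 5. It was lowest in library 1 and highest in libraries 4 and 5, as Ttr was. Cab39l (1372 to 2399), Slc4a2 (1704 to 2588), Ace (634 to 1749) and Slc13a4 (657 to 999), next in abundance, spanned less in the cerebellum. Library 1 was the lowest of these for Cab39l, Slc4a2 and Ace, and library 6 for Slc13a4.

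By likeness to Ttr, as Pearson's r over 12 libraries on deviations of log2(normalized count + 1) from the 4 group means, the 10 tested genes outside the members with the highest r were Slc39a4 (0.962), Kcne2 (0.955), Tmem72 (0.9497), Zfp947 (0.938), Cldn2 (0.931), Maats1 (0.927), Ccdc135 (0.925), Col4a3 (0.907), Nhej1 (0.906) and Caps2 (0.901). These are descriptions over libraries that share the low library 1 of the cerebellum and the high library B of the cortex. The first 3 of these genes stood at 1.11 to 2.21 normalized counts in cortical libraries C and D, too low to rank. Kcne2 spanned 9.27 to 934 normalized counts in the cerebellum and Tmem72 1.69 to 424, a span like that of the members, whereas Nhej1 only spanned 46.6 to 72.1. Among the members r was 0.958 for Slc4a5, 0.894 for Kl, 0.856 for Folr1, 0.816 for Aqp1, 0.766 for Clic6, 0.754 for Kcnj13 and 0.207 for Otx2.

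Markers of neighbouring tissue were set beside the members by their summed normalized counts. The summed members ran from 292 to 476 in 5 cortical libraries and stood at 1784 in library B, of which Ttr made 1298. The summed wider plexus list set library B less apart, at 17319 against 16159 and 15659 in WT libraries C and D. In SCA1 KI libraries it summed to 12850 to 13633, so this sum did not overlap between the cortical genotypes. Most of it was Enpp2, at 11419, 10670 and 9821 in WT libraries B, C and D. In SCA1 KI libraries A, E and F Enpp2 stood at 7667, 7382 and 7523 and was not called (LFC -0.50, limma adjusted p = 0.583). Of all tested genes 30.9% did not overlap there. Ependyma, the lining of the ventricles (11 genes tested), summed to 738 in library B and 785 in library F against 354 to 476 in the other 4 cortical libraries. In the cerebellum it summed to 1927 to 2136 in WT and 1277 to 1568 in SCA1 KI, with library 1 (1277) next to library 3 (1309). The ependymal sum thus did not share the near absence of Ttr in library 1. Of the 11, 1 was called lower in the cortex of SCA1 KI, 1700016K19Rik (LFC -1.67, adjusted p = 0.00299), and 0 in the cerebellum (against 15.6% and 5.36% of tested genes called in either direction). Dnah11 was the most abundant. Meningeal genes (11 tested, 0 called in either region, highest Igf2) summed to 6160 to 9567 in the cortex, with library B at 6835, and 10820 to 16493 in the cerebellum, with library 1 at 11503.

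Striatal genes (8 tested, highest Ppp1r1b) singled out library B, as Ttr and Slc4a5 did, at a sum of 27031 against 8472 to 15395 in the other 5 cortical libraries. Of these genes, 2 were called lower in the cortex of SCA1 KI (Ppp1r1b and Penk) and 1 lower in the cerebellum (Tac1). Genes of midbrain and brainstem (7 of 10 tested, highest Tal1) summed to 244 to 339 in cortical WT and 856 to 1816 in cortical SCA1 KI libraries, highest in library F, where Otx2 was also highest. In the cerebellum they summed to 859 to 1244 in WT and 220 to 292 in SCA1 KI. Of these, 3 were called higher in cortical and 4 lower in cerebellar SCA1 KI libraries (Pou4f1, Tal1 and Shox2 in both, and Gata3 in the latter). None of the plexus members was called between genotypes. In the cortex the split of the sum rested on Tal1 (115 to 125 in WT, 497 to 991 in SCA1 KI) and Pou4f1 (2.21 to 6.83 against 217 to 372). Cortical Th, Tph2, Slc6a4 and Gata3 overlapped between genotypes. Hippocampal genes (8 tested, highest Wfs1) had 2 called lower in the cortex (Cabp7 and Wfs1) and 0 called in the cerebellum, with sums of 2407 to 5989 in the cortex and 4692.5 to 5155 in the cerebellum. Thalamic genes (8 tested, highest Prkcd) had 2 lower calls in cortical (Ramp3 and Rgs16) and 4 in cerebellar SCA1 KI libraries (Tcf7l2, Lef1, Slitrk6 and Rgs16), with sums of 1695 to 2611 and 4930 to 8008. Cortical neuron genes (8 tested, highest Tbr1) had 2 called lower in the cortex (Cux2 and Rorb), and in the cerebellum Tbr1 higher and Rorb lower. Cerebellar neuron genes (10 tested, highest Car8) had 3 called lower in the cortex (Calb1, Car8 and Pvalb) and 0 called in the cerebellum. Of the blood list Alas2 alone was in the table, lower in the cortex of SCA1 KI (121 to 193 against 238 to 298; limma, adjusted p = 0.0364), not called in the cerebellum. Of all tested genes 15.6% were called in the cortex (741 genes higher and 1661 lower) and 5.36% in the cerebellum (141 higher and 683 lower). With lists of 7 to 10 tested genes, counts of 1 to 3 calls are too small to be read as traits of a list. The part of tissue carried over in dissection in any of these values was not tested.

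**Figure D4:**
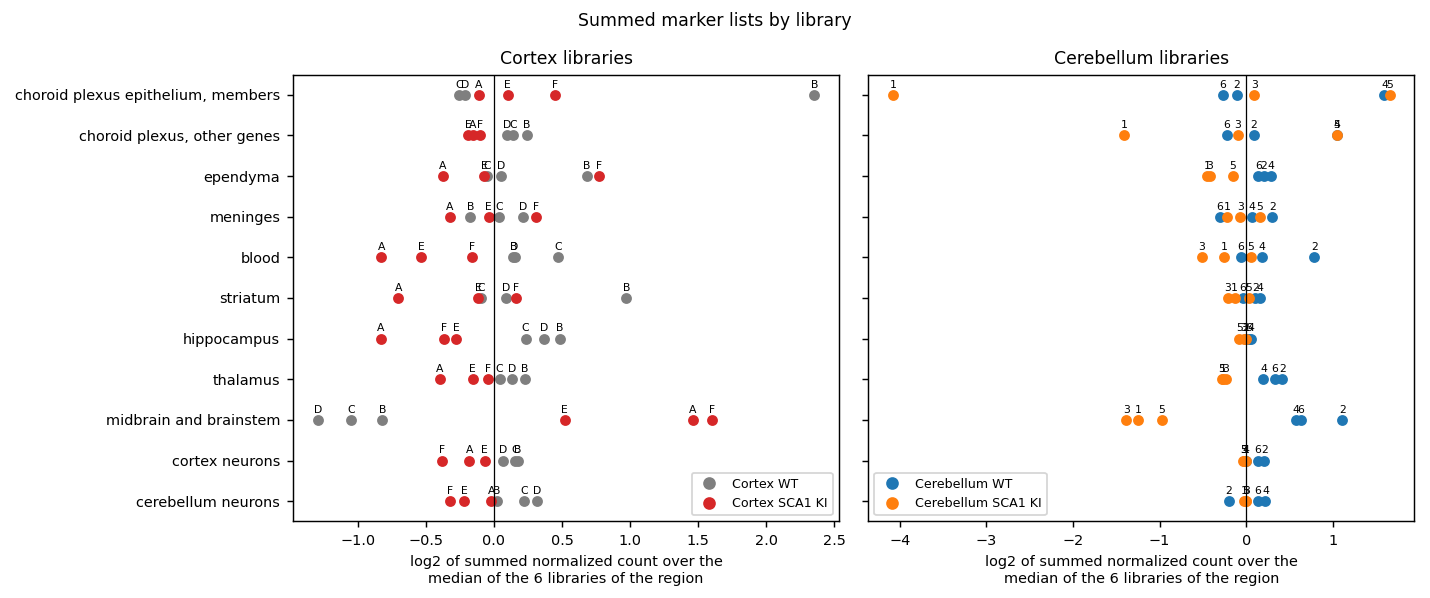
Summed normalized counts of each marker list, as log2 of the ratio to the median of the 6 libraries of the region, 1 point a library, cortex on the left and cerebellum on the right. By the summed members library B stands apart in the cortex (1784, of which Ttr made 1298) and library 1 in the cerebellum (1449). The sum of the midbrain and brainstem list splits by genotype in both regions, in the cortex through Tal1 and Pou4f1.

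The Ttr level was also added as a covariate to the genotype comparison of all genes. In the cerebellum 613 genes were called with the covariate against 824 without it, and 597 were called by both (72.5% of the latter and 97.4% of the former). In the cortex the counts were 2117 against 2402, with 2054 in both (85.5% and 97.0%), and for the difference between the regions 1064 against 1252, with 1053 in both (84.1% and 99.0%). Leaving out library 1 gave 399 calls in the cerebellum. Leaving out the other SCA1 KI libraries there, neither of which was low in Ttr, gave 454 without library 3 and 512 without library 5. The fits with the covariate and those without a library also have fewer degrees of freedom than the main fit. A lower count of calls alone therefore does not measure how far Ttr bore on the comparison.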

How the data were processed

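Poly-adenylated RNA was sequenced by the authors as paired ends. Per the labels the authors used STAR, featureCounts and DESeq2 with build mm10, and deposited 1 table whose signal is the normalized count, reads divided by a size factor. The columns are named by region, genotype and a letter or number that matches no replicate label. Values were whole reads in 100% of entries (tolerance 0.1 read), which served depth, edgeR 4.0.16 and DESeq2 1.42.0. Genes averaging 10 or more normalized counts were tested (15369 of 15759 entries) with limma 3.58.1 in R 4.3.3 on log2(normalized count + 1), 4 group means and a trend, adjusted by Benjamini-Hochberg. This scale understates changes of low genes. Nothing says that the libraries of a group came from separate animals, so p-values measure the spread between libraries. Relations and Ttr means were tested by exact permutation, 2-sided, in Python 3.11.15 with scipy 1.17.1. The fits were tested on simulated data. Exon lengths and overlaps came from GENCODE M21.

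The members and marker lists were chosen with earlier results of these data known. The genes named are the 8 members, Atxn1, the 10 genes most like Ttr, the plexus genes called or among the 5 most abundant, and the most abundant gene of each other list. Other genes are named because a count of 5 or fewer or a called relation includes them, and were chosen after their values were seen. Alternatives were other pseudocounts (0.5, 5), other filters (none, or a mean of at least 100), no trend, edgeR, DESeq2, each region alone, other LFC limits and each library left out. Leaving out libraries B and 1 together and the fit on Ttr were added after seeing the data.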

Additional observations from a re-analysis of the deposited data

How the results depend on the processing

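The number of members called between genotypes was 0 in both regions, and in the difference between the regions, under each alternative run. Between regions it was 7 or 8 in WT and 6 to 8 in SCA1 KI. No paired analysis was possible because the library columns carry no replicate number of the labels. The uncalled genotype fold changes turned with single libraries. With 1 library left out at a time, LFCs in the cortex ran from -0.29 to 0.29 for Kl, -0.43 to 0.87 for Aqp1, -0.16 to 0.17 for Kcnj13, -0.68 to 1.21 for Otx2 and -0.92 to 0.47 for Slc4a5. In the cerebellum they ran from -3.29 to 0.50 for Ttr, -2.11 to 0.36 for Kl, -2.72 to 0.42 for Folr1, -2.81 to 0.52 for Aqp1, -1.24 to 0.14 for Clic6, -1.40 to 0.00541 for Kcnj13, -0.0534 to 0.21 for Otx2 and -1.44 to 0.57 for Slc4a5. The difference between the regions in the genotype effect ran from -2.13 to 1.71 for Ttr, -0.43 to 2.05 for Kl, -2.23 to 0.91 for Folr1, -0.47 to 2.86 for Aqp1, -0.00207 to 1.41 for Kcnj13, -0.75 to 1.14 for Otx2 and -0.91 to 1.11 for Slc4a5. The region difference of Aqp1 in SCA1 KI ran from -0.67 to 2.66.

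Without libraries B and 1 together the LFC turned in the cortex for Kl (0.29) and Slc4a5 (0.47), and in the cerebellum for Ttr (0.50), Kl (0.36), Folr1 (0.42), Aqp1 (0.52), Clic6 (0.14), Kcnj13 (0.00541) and Slc4a5 (0.57). The difference between the regions turned for Ttr (-0.54), Kl (-0.0711), Aqp1 (-0.36), Kcnj13 (-0.00295) and Slc4a5 (-0.10). It also turned for Ttr with edgeR (-3.07) and DESeq2 (-3.10), for Slc4a5 with edgeR (-0.87) and DESeq2 (-0.93), and for Folr1 with a pseudocount of 5 (0.0333), and the cause was not tested.

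Uncalled genotype LFCs also moved by over 1.5 times between limma and edgeR, in the cortex for Ttr (-1.63 against -3.22), Kl (-0.0642 against -0.11), Aqp1 (0.0478 against 0.43), Kcnj13 (0.00333 against 0.0493), Otx2 (0.38 against 1.38) and Slc4a5 (-0.34 against -0.89). In the cerebellum they did so for Ttr (-1.76 against -0.16), Kl (-1.04 against -0.25), Folr1 (-1.43 against -0.20), Aqp1 (-1.45 against -0.15), Clic6 (-0.58 against -0.33) and Slc4a5 (-0.54 against -0.0244).

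In the cerebellum 7 of 7 members were related to Ttr on linear counts and on deviations from the genotype means, and 6 on the main scale. In the cortex 1 member, Slc4a5, was related to Ttr on deviations from the genotype means and 0 on the main scale. Pearson's r in the cortex turned without libraries A and B for Kl (-0.92), Clic6 (-0.43), Kcnj13 (0.0688) and Slc4a5 (-0.94), and for Otx2 on linear normalized counts (-0.11). Low read numbers in the cortex (1 to 21 reads of Folr1) limit its comparison there.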
